A study of Homo sapiens with 6 samples.

Results

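The SR proteins and the heterogeneous nuclear ribonucleoproteins (hnRNPs) are the RNA-binding proteins that set which exons of a human transcript are kept. Their mRNAs were followed here in HEK 293T cells, an established human embryonic kidney line that carries the SV40 large T antigen. Members were chosen by symbol, biotype and detection, by a rule that used no fold change. It was set with earlier results of these data known. Members were the protein-coding genes named SRSF, TRA2, HNRNP, PTBP1 to PTBP3, PCBP1 to PCBP4 and RBFOX1 to RBFOX3 whose largest estimated count over the 6 libraries was above 12. The rule gave 46 of the 30270 genes in the count table, of which 23952 passed the same count limit and were tested. The member nearest above the limit was PCBP3, with a largest count of 44, and HNRNPCL2 fell below it with a largest count of 8.46. A further 66 matching names were annotated as pseudogenes or other biotypes and were not members. RBFOX1 was not analysed here.

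The samples were 3 libraries of wild-type cells (WT) and 3 of a TENT3A/B double knockout, where TENT3A and TENT3B are TUT4 and TUT7, the terminal uridylyltransferases that add uridines to the 3′ ends of RNA and so mark them for decay. Both groups were grown in DMEM with fetal bovine serum and antibiotics and received no treatment. The double knockout line (ΔTUT4/7) was made earlier by another group, and whether it is 1 clone was not stated in the sources used here, so each group stands for 1 line and p-values measure only the spread between cultures of that line. Total RNA was sequenced after removal of ribosomal RNA.

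SR proteins carry RNA recognition motifs and a domain rich in arginine and serine, bind exonic enhancers and recruit the spliceosome. They are phosphorylated by the SRPK and CLK kinases, and many of their own transcripts contain a poison exon that sends the mRNA to nonsense-mediated decay when the protein is abundant. The hnRNPs coat nascent transcripts and often bind silencers. hnRNP A1 loops out or masks exons, hnRNP C binds uridine tracts, the F and H proteins bind runs of guanine, hnRNP K and the PCBPs bind cytosine-rich RNA, hnRNP L binds CA repeats and the PTB proteins bind pyrimidine tracts. RBFOX proteins bind a short element in introns and are abundant in neurons and muscle.

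Library totals ranged from 18757228 to 33148937 estimated counts, and 40 members had a mean count of at least 1000 per library. The level of a gene is given as CPM, counts per 1000000 counts of the scaled library, with the SD over 3 libraries, and a change as the log2 fold change of the libraries labelled ΔTUT4/7 over WT with its SE. A gene was called changed where its Benjamini-Hochberg adjusted p (FDR) from edgeR's quasi-likelihood test over all tested genes was under 0.05. TUT4 was detected at 212, 216 and 206 CPM in WT and at 882, 920.4 and 917 CPM in the libraries labelled ΔTUT4/7, a rise of 2.10 ± 0.04 (adjusted p = 7.89e-19), whereas TUT7 fell from 62.6 ± 2.17 to 26.3 ± 1.04 CPM. TUT4 thus went against the label at the level of total transcript, and these counts do not show which part of either gene was altered. Of the HEK 293T markers examined, VIM rose from 496 ± 22.9 to 1250.0 ± 5.78 CPM and INA from 2.34 ± 0.0939 to 31.4 ± 1.24 CPM, NEFL fell from 352 ± 12.4 to 105 ± 1.33 CPM, and NEFM went from 969 ± 123.2 CPM to 1 count in 3 libraries. NEFH and PAX2 were at most 2.39 CPM in any library. Of the markers of other cells, ALB and PECAM1 were at most 0.228 CPM, and COL1A1 was at 20.4 ± 1.57 CPM in WT and 7.45 ± 0.801 CPM in the libraries labelled ΔTUT4/7. The part of these differences between the lines in the changes below was not tested.

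Several members share sequence with other genes. HNRNPA1 has many processed copies elsewhere in the genome, and 57.3% of the summed estimated counts of HNRNPA1 and its 39 counted copies were assigned to the copies. A retrocopy is the reverse-transcribed mRNA inserted back into the genome, so it lacks introns and differs from the parent at few bases. Over the 924 coding bases (GENCODE 44), HNRNPA1P48 matched HNRNPA1 at 99.2%, HNRNPA1P7 at 99.1% and HNRNPA1L2 at 98.4% of positions. Of the 849 windows of 76 bases in the HNRNPA1 coding sequence, as long as the sequencing reads, 68.0% occurred unchanged in HNRNPA1P7, 46.9% in HNRNPA1P48 and 25.3% in HNRNPA1L2. Over the whole HNRNPA1 transcript, the share of windows found in any other annotated gene was 29.7%, beside 100% for HNRNPA1L2, 45.1% for HNRNPUL2, 43.7% for HNRNPCL1, 43.5% for HNRNPA1P48 and 32.1% for HNRNPL. The other genes include models annotated over the member itself: the shared windows of HNRNPUL2 all lay in the readthrough gene HNRNPUL2-BSCL2. For HNRNPA1L2 a single other gene model held 100% of the windows, and its position was not examined. A read from a shared window fits more than 1 annotated gene, at the same locus or elsewhere, and the estimated counts divide it by a model.

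The 46 members moved mostly upwards. Of these, 34 (73.9%) were higher in the libraries labelled ΔTUT4/7, 5 (10.9%) were lower and 7 did not pass the test. Over all tested genes 28.6% were called higher and 29.0% lower. Members are abundant, and among protein-coding genes averaging at least 1000 counts 51.6% were higher and 28.4% lower, beside 31 higher and 3 lower of the 40 members above that level. The median log2 fold change was 0.35 over the members, −0.02 over all tested genes and 0.15 over the abundant protein-coding genes. In 33 members every library labelled ΔTUT4/7 lay above every WT library, and in 5 every one lay below, where 31.0% and 31.8% of all tested genes did so. Only 4 members passed a 2-fold limit, all of them higher (RBFOX3, SRSF9, PCBP3 and HNRNPF), against 5.90% of all tested genes higher and 12.4% lower at that limit. Summed over the 46 members, the level went from 16700 ± 367 CPM in WT to 20511 ± 530.3 CPM, a ratio of 1.23. In a bulk sample, a change in the share of cells of 1 kind and a change in RNA per cell cannot be told apart.

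**Figure D1:**
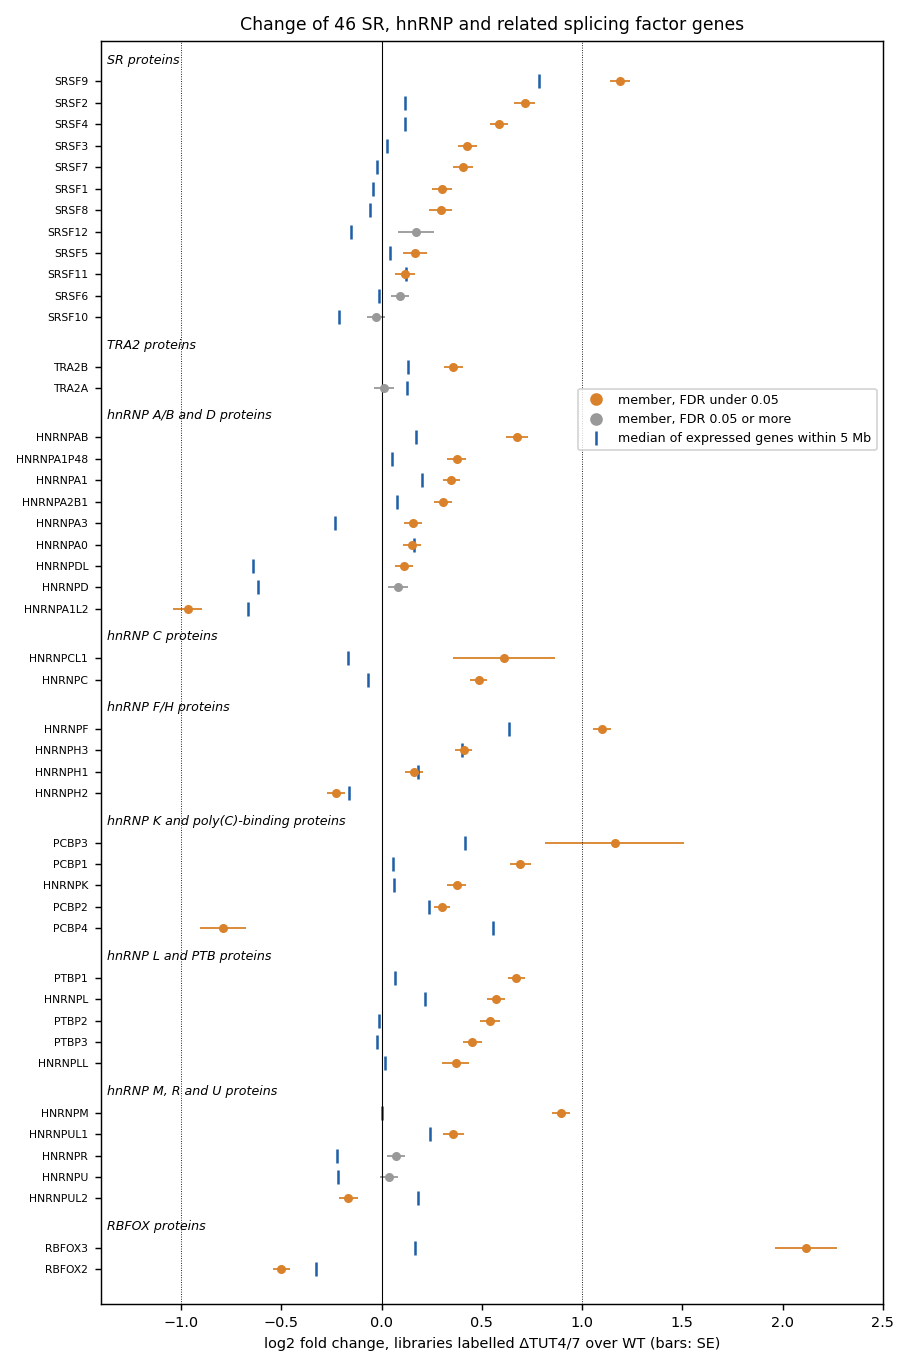
The log2 fold change of each of the 46 members (points, with SE bars), grouped by role, and the median log2 fold change of the expressed genes within 5 Mb of each member (vertical marks). Most points lie to the right of 0 and 4 lie beyond the 2-fold line at 1, while HNRNPA1L2, PCBP4 and RBFOX2 lie farthest to the left and SRSF9 and HNRNPF have raised neighbours.

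The SR genes rose in 9 of 12 cases and the other 3 did not pass the test, with a median of 0.30. Their summed level went from 3446 ± 159 CPM to 4296 ± 181 CPM. SRSF9 (SRp30c, a shuttling SR protein; chr12:120461672-120469748) was the SR gene with the widest difference. It was measured at 111, 122 and 112 CPM in WT and at 257, 281 and 249.7 CPM in the libraries labelled ΔTUT4/7, a change of 1.19 ± 0.05 (adjusted p = 4.11e-14). The groups were far apart, with the lowest value of one more than 2-fold above the highest of the other.

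SRSF2 (SC35, a marker of nuclear speckles; chr17:76734115-76737333) stood at 195, 226 and 218 CPM in WT and 345, 369 and 337 CPM in the libraries labelled ΔTUT4/7 (change 0.71 ± 0.05, adjusted p = 4.81e-10). SRSF4 (SRp75) was at 151, 158 and 153 CPM and rose to 226, 240.4 and 228 CPM (change 0.59 ± 0.04, adjusted p = 2.57e-10). In both genes all 3 libraries of one group exceeded all 3 of the other. SRSF3, a short SR protein that also acts in mRNA export, rose from 426 ± 9.45 to 573 ± 32.4 CPM (change 0.43 ± 0.05), and SRSF7 (9G8), its close relative in export, from 240.3 ± 14.4 to 318 ± 13.3 CPM (change 0.41 ± 0.05). SRSF1, the founding member of the family and the most abundant by CPM, had 689, 774 and 730.1 CPM in WT and 861, 954 and 891 CPM in the libraries labelled ΔTUT4/7 (change 0.30 ± 0.05, adjusted p = 2.03e-05). SRSF8, a retrogene derived from SRSF2, rose from 49.2 ± 2.11 to 60.5 ± 1.99 CPM (change 0.30 ± 0.06).

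The remaining SR genes moved little. SRSF5 rose by 0.17 with overlapping groups (adjusted p = 0.0244), and its call was lost in 7 of 19 alternative analyses, among them those without WT replicate 1 (0.11, adjusted p = 0.131), WT replicate 2 (0.16, 0.0954) or ΔTUT4/7 replicate 2 (0.12, 0.113). SRSF11 was called at 0.12 with an adjusted p of 0.0490, next to the threshold, and lost the call in 13 of 19, with adjusted p from 0.0751 to 0.363 without WT replicate 1 or without any one of the libraries labelled ΔTUT4/7. SRSF6 (SRp55) had a change of 0.09 ± 0.05 and SRSF12 of 0.17 ± 0.09, which did not pass the test (adjusted p = 0.0872 and 0.112). Without WT replicate 2, SRSF6 was called at 0.13 (adjusted p = 0.0155). Once GC content and length were offset, SRSF6 was called at 0.17 (adjusted p = 2.93e-04). SRSF10, which represses splicing when dephosphorylated, was measured at 460.1, 496 and 484 CPM in WT and 461, 493 and 460.0 CPM in the libraries labelled ΔTUT4/7. These values overlapped fully, and the change of −0.03 ± 0.05 did not pass the test (adjusted p = 0.639). The call depended on the scale: SRSF10 was called lower when libraries were scaled by their totals alone (−0.14, adjusted p = 0.00930) or by the upper quartile (−0.13, adjusted p = 0.0220), and higher once GC content and length were offset (0.13, adjusted p = 0.00468) or the neighbouring genes subtracted (0.19, adjusted p = 0.00132). SRSF12 was called higher in the last 2 of these (0.24 and 0.33).

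The TRA2 genes, which encode sequence-specific activators related to the SR proteins, differed in their calls. TRA2B rose from 386 ± 20.3 to 495 ± 16.2 CPM (change 0.36 ± 0.05, adjusted p = 8.93e-07), whereas TRA2A stood at 199.7, 180.3 and 177 CPM in WT and 181, 194 and 186 CPM in the libraries labelled ΔTUT4/7 (change 0.01 ± 0.05, adjusted p = 0.863), and its sign turned in 7 alternative analyses. The log2 ratio of TRA2A to TRA2B within a library, which needs no scaling between libraries, fell by 0.35, with no overlap between groups. The exact two-sided permutation p was 0.10, the smallest that 3 against 3 libraries allow.

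**Figure D2:**
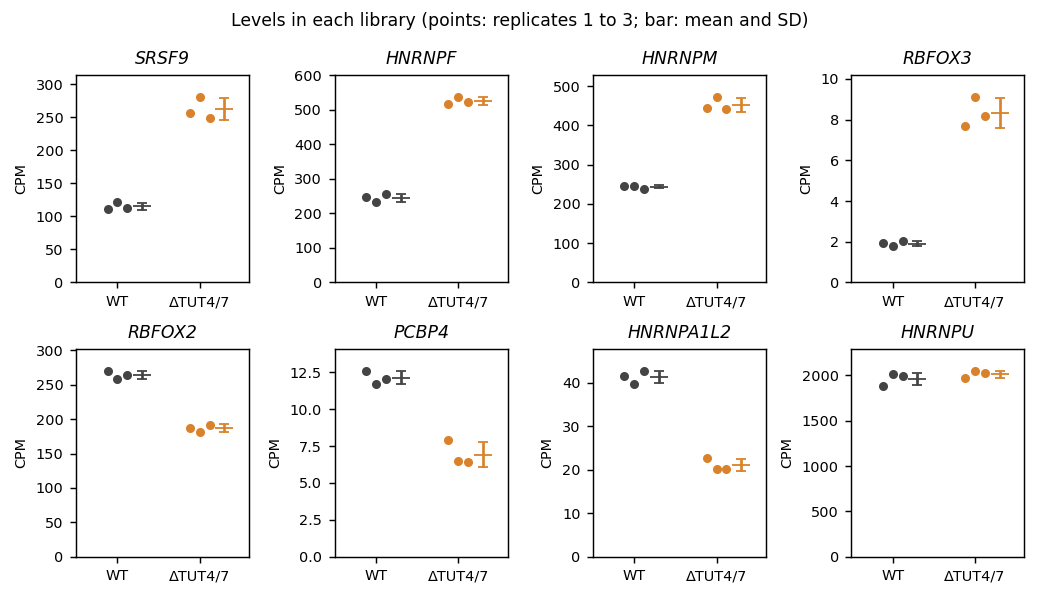
CPM of 8 members in each library (points, replicates 1 to 3 of each group from left to right, with the mean and SD beside them), each panel on its own linear axis from 0. SRSF9, HNRNPF, HNRNPM and RBFOX3 are higher and RBFOX2, PCBP4 and HNRNPA1L2 lower in all 3 libraries labelled ΔTUT4/7, while the HNRNPU groups overlap.

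Among the hnRNP A/B and D genes, 7 of 9 rose, HNRNPA1L2 fell and HNRNPD did not pass the test. HNRNPAB, which binds both RNA and DNA, changed most among those that rose, from 275, 259 and 306 CPM to 433, 469 and 442 CPM (change 0.68 ± 0.06, adjusted p = 6.97e-09). HNRNPA2B1, a partner of hnRNP A1 in the core particles, had the second highest level per kb of transcript in WT, 420.0 ± 12.7 CPM per kb, and rose from 1524 ± 46.2 to 1884 ± 52.5 CPM (change 0.31 ± 0.04). HNRNPA3 and HNRNPA0 were called at 0.16 and 0.15, and both calls were lost when libraries were scaled by their totals alone or by the upper quartile and among genes with a mean count of at least 50, that of HNRNPA0 also without WT replicate 1 (0.12, adjusted p = 0.0664). HNRNPD (AUF1), which binds AU-rich elements and marks mRNAs for decay, was at 353, 362 and 406 CPM in WT and 385, 403 and 397 CPM in the libraries labelled ΔTUT4/7 (adjusted p = 0.180), and was called at 0.14 without WT replicate 3 (adjusted p = 0.00945), at 0.12 once GC content and length were offset (adjusted p = 0.0497) and at 0.70 with the neighbours subtracted. Its neighbour on chromosome 4, HNRNPDL, was called at 0.11 (adjusted p = 0.0328), a call lost in 7 alternative analyses, 4 of them without 1 library (WT replicate 1 or 2, ΔTUT4/7 replicate 2 or 3) with adjusted p from 0.0527 to 0.165. The ratio of HNRNPDL to HNRNPD differed by 0.03 between groups (exact permutation p = 0.8) and by −0.020 to 0.058 with 1 library left out, the lowest without WT replicate 3 and the highest without WT replicate 1.

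HNRNPA1 itself was measured at 735, 721 and 771 CPM in WT and 934, 972 and 928 CPM in the libraries labelled ΔTUT4/7, a change of 0.35 ± 0.04 (adjusted p = 4.68e-07). HNRNPA1P48, named HNRNPA1L3 in GENCODE 44, changed by 0.38 ± 0.05 (from 479 ± 31.1 to 621 ± 15.9 CPM) and the pseudogene HNRNPA1P7 by 0.28 ± 0.09. Since reads of these loci can be exchanged, the sum over HNRNPA1 and its 39 copies was also tested, and it rose by 0.31 ± 0.05 (adjusted p = 9.64e-06). HNRNPA1 held 42.2% ± 1.34 of that sum in WT and 43.4% ± 0.972 in the libraries labelled ΔTUT4/7, HNRNPA1P48 held 27.2% ± 0.279 and 28.5% ± 0.850, and HNRNPA1P7 held 25.9% ± 1.76 and 25.6% ± 0.525. The shares of HNRNPA1 and HNRNPA1P7 overlapped between the groups, whereas the highest WT share of HNRNPA1P48 was 27.5% and the lowest of the other group 27.6%.

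HNRNPA1L2, an expressed retrocopy, went the other way. It was at 41.4, 39.8 and 42.6 CPM in WT and 22.6, 20.3 and 20.1 CPM in the libraries labelled ΔTUT4/7 (change −0.97 ± 0.07, adjusted p = 1.36e-10), and its share of the sum went from 2.35% ± 0.0810 to 0.965% ± 0.0714. All of its 76-base windows occur in other annotated genes, and the lncRNA AL137058.2, annotated on the same strand over it, fell by 1.23 on the log2 scale. The 51 expressed genes within 5 Mb had a median of −0.67, and the change was −0.30 relative to that median (adjusted p = 0.00103, with the median taken as a fixed value).

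**Figure D3:**
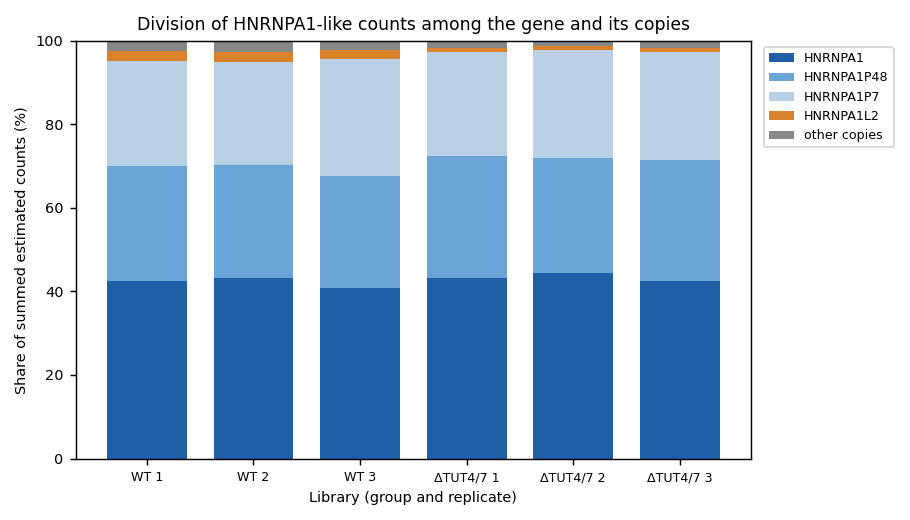
Share in percent of the summed estimated counts of HNRNPA1 and its 39 counted copies that each locus received in each of the 6 libraries (stacked bars from 0 to 100). HNRNPA1 receives 40.7% to 44.4% in every library, and HNRNPA1L2 is the narrow band that shrinks from above 2.25% in WT to at most 1.05% in the libraries labelled ΔTUT4/7.

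Copies took a smaller part of the counts for the other members. Another 40 copies, HNRNPCL1 among them, belonged to 17 further members, and copies took 27.1% of the summed counts for HNRNPL, 24.8% for HNRNPA3, 12.01% for HNRNPC and 11.3% for PCBP2. Adding them left HNRNPL at 0.63 ± 0.04, HNRNPA3 at 0.19 ± 0.05, HNRNPC at 0.48 ± 0.04 and PCBP2 at 0.28 ± 0.04, all still called higher. SRSF6 passed the test once its copy was added (0.11 ± 0.05, adjusted p = 0.0457). Of the 76 copies that are not members, 50 were tested, of which 12 were higher and 5 lower, where 28.6% and 29.0% of all tested genes were so called.

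Both hnRNP C genes were called higher. HNRNPC (chr14:21209136-21269494) rose from 793, 767 and 807 CPM to 1085, 1128 and 1097 CPM (change 0.48 ± 0.04, adjusted p = 2.21e-09). HNRNPCL1, an intronless relative, had 80.8 counts over the 3 WT libraries and 115 over the others. Its call (0.61 ± 0.25, adjusted p = 0.0461) was lost in 13 of 17 alternative analyses, including those without any one library except ΔTUT4/7 replicate 3 (adjusted p from 0.0635 to 0.214), and 43.7% of its 76-base windows occur in other genes.

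In the F and H group, HNRNPF rose more than 2-fold while HNRNPH2 fell. HNRNPF (chr10:43385617-43409166) was at 246, 233 and 257 CPM in WT and 517, 537 and 522 CPM in the libraries labelled ΔTUT4/7 (change 1.10 ± 0.05, adjusted p = 1.38e-14). HNRNPH3 rose from 242 ± 8.59 to 322 ± 6.87 CPM (change 0.41 ± 0.04). HNRNPH1 had the highest level per kb of all members in WT, 559.9 ± 15.9 CPM per kb, and rose by 0.16 ± 0.04 (adjusted p = 0.00302). That call was lost with library totals alone (0.05, adjusted p = 0.365), with upper-quartile scaling (0.06, adjusted p = 0.249), among genes with a mean count of at least 50 (0.10, adjusted p = 0.0666) and with the neighbours subtracted. HNRNPH2, its X-linked paralog, went from 194, 196 and 212 CPM to 173, 170.1 and 171 CPM (change −0.23 ± 0.05, adjusted p = 2.32e-04). The log2 ratio of HNRNPH2 to HNRNPH1 fell by 0.39 without overlap (exact permutation p = 0.1).

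Of the hnRNP K and poly(C)-binding genes, 4 of 5 rose and PCBP4 fell. HNRNPK rose from 683 ± 38.5 to 886 ± 30.2 CPM (change 0.37 ± 0.05) and PCBP2 from 507 ± 12.7 to 625 ± 9.62 CPM (change 0.30 ± 0.04). PCBP1, an intronless gene, had 94.8, 95.5 and 107 CPM in WT and 157, 163 and 161 CPM in the libraries labelled ΔTUT4/7 (change 0.69 ± 0.05, adjusted p = 1.65e-10). The ratio of PCBP2 to PCBP1 fell by 0.39 on the log2 scale without overlap (exact permutation p = 0.1). PCBP4 (chr3:51957454-51974016), a weakly expressed relative, was at 12.6, 11.7 and 12.1 CPM in WT and 7.89, 6.50 and 6.38 CPM in the libraries labelled ΔTUT4/7 (change −0.79 ± 0.11, adjusted p = 3.69e-06). Here the surroundings went the opposite way: the 144 expressed genes within 5 Mb had a median of 0.56, and ABHD14B, which overlaps PCBP4 on the same strand, rose by 0.47. PCBP3 had 17, 22 and 12 counts in WT and 42, 21 and 44 in the libraries labelled ΔTUT4/7. Its change of 1.16 ± 0.35 (adjusted p = 0.00715) did not pass without ΔTUT4/7 replicate 3 (0.82, adjusted p = 0.0684).

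All 5 hnRNP L and PTB genes rose, with a median of 0.54. PTBP1, the widely expressed repressor of neuronal exons (chr19:797075-812327), was at 303, 314 and 322 CPM in WT and 506, 499 and 491 CPM in the libraries labelled ΔTUT4/7 (change 0.67 ± 0.04, adjusted p = 1.36e-11). PTBP2, its paralog in neurons, rose from 93.4, 95.2 and 85.2 CPM to 130.1, 137 and 130.2 CPM (change 0.54 ± 0.05, adjusted p = 8.65e-09). PTBP1 protein is known to repress PTBP2 by exon skipping, and both transcripts rose here. PTBP3 rose by 0.45 ± 0.05 and HNRNPLL, a regulator of CD45 splicing in lymphocytes, by 0.37 ± 0.07. HNRNPL was at 215, 196 and 209 CPM and 317, 305 and 299 CPM (change 0.57 ± 0.05, adjusted p = 5.79e-10). Relative to PTBP1, PTBP3 fell by 0.22 without overlap (exact permutation p = 0.1) and PTBP2 by 0.13 with overlap (exact permutation p = 0.3). HNRNPLL fell by 0.20 relative to HNRNPL with overlap (exact permutation p = 0.2). Without WT replicate 3 the PTBP2 difference was −0.20, and that of HNRNPLL was −0.13 without WT replicate 2 and −0.12 without ΔTUT4/7 replicate 1.

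In the last group of hnRNPs, HNRNPM and HNRNPUL1 rose, HNRNPUL2 fell, and HNRNPR and HNRNPU did not pass the test. HNRNPM (chr19:8444767-8489114), which binds GU-rich RNA, had 246, 245 and 239 CPM in WT and 443, 473 and 441 CPM in the libraries labelled ΔTUT4/7. Its change of 0.89 ± 0.04 (adjusted p = 2.09e-13) ranged from 0.78 to 0.91 over 19 alternative analyses, and its 209 expressed neighbours had a median of 0.002 on the log2 scale. HNRNPU (SAF-A), which also organises chromatin and is the member with the most CPM, was at 1883, 2012 and 1992 CPM in WT and 1970.5, 2048 and 2023 CPM in the libraries labelled ΔTUT4/7 (change 0.04 ± 0.04, adjusted p = 0.479), with overlapping groups. HNRNPR, which also acts in transcript transport, differed by 0.07 ± 0.04 (adjusted p = 0.173). Both were called higher once GC content and length were offset (HNRNPU 0.16, HNRNPR 0.23) or the neighbouring genes subtracted (HNRNPU 0.25, HNRNPR 0.29). HNRNPUL1 rose from 303 ± 26.7 to 388 ± 3.74 CPM (change 0.36 ± 0.05). HNRNPUL2 fell from 107 ± 3.73 to 95.3 ± 2.20 CPM (change −0.17 ± 0.05), while the readthrough gene HNRNPUL2-BSCL2, with which it shares 45.1% of its 76-base windows, rose by 0.20. The ratio of HNRNPUL1 to HNRNPU rose by 0.32 without overlap (exact permutation p = 0.1).

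**Figure D4:**
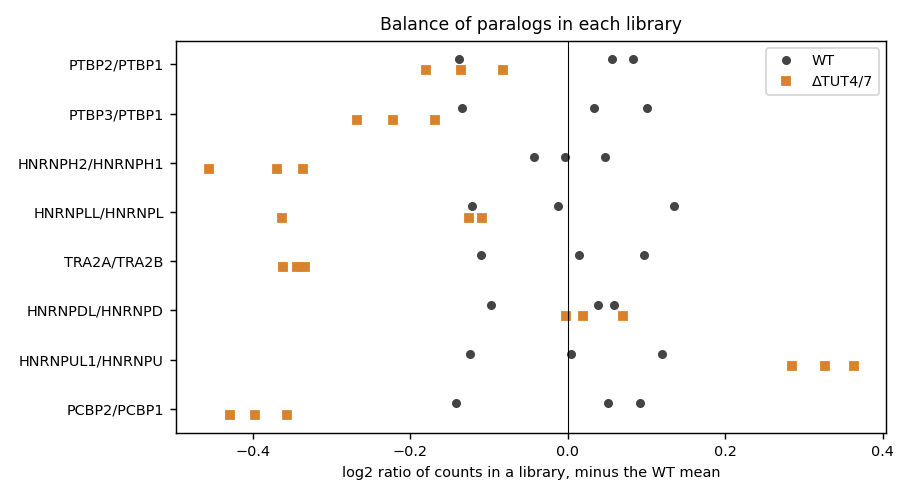
The log2 ratio of the counts of 8 pairs of paralogous members in each library, with the WT mean of each pair set to 0 (circles for WT, squares for the libraries labelled ΔTUT4/7). The groups do not overlap for PTBP3/PTBP1, HNRNPH2/HNRNPH1, TRA2A/TRA2B, HNRNPUL1/HNRNPU and PCBP2/PCBP1, and overlap for the other 3 pairs.

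Of the 8 pairs compared, 5 did not overlap between the groups. Among all tested genes taken singly, 31.0% lay higher and 31.8% lower without overlap. The share for ratios of other gene pairs was not counted, so the 5 pairs cannot be set apart from that background. Adjusted over the 8 pairs, the exact permutation p was 0.16 for each of those 5, 0.267 for HNRNPLL/HNRNPL, 0.343 for PTBP2/PTBP1 and 0.8 for HNRNPDL/HNRNPD, in a design that cannot reach 0.05.

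The 2 RBFOX genes moved in opposite directions. RBFOX2 (chr22:35738736-36028824) was at 269.8, 258 and 265 CPM in WT and 188, 181 and 192 CPM in the libraries labelled ΔTUT4/7 (change −0.50 ± 0.04, adjusted p = 2.23e-09). RBFOX3, the neuronal protein known as NeuN (chr17:79089345-79516148), had 38, 46 and 62 counts in WT and 246, 177 and 160 in the libraries labelled ΔTUT4/7, which is 1.93, 1.77 and 2.02 CPM against 7.68, 9.12 and 8.17 CPM. It had the largest change of all members, 2.12 ± 0.15 (adjusted p = 1.39e-10), at a level per kb under 3 CPM in each group mean. At 36.6 CPM per kb in WT and 25.9 in the libraries labelled ΔTUT4/7, RBFOX2 stayed far above RBFOX3, at 0.603 and 2.63.

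Levels per kb of transcript compare genes only roughly, because the length is that of 1 annotated transcript, whichever forms were expressed. For HNRNPA1 and HNRNPA1P48 they also rest on reads divided between similar loci by a model. In WT these levels spanned from 0.307 ± 0.118 CPM per kb for PCBP3 to 559.9 ± 15.9 for HNRNPH1. After HNRNPH1 and HNRNPA2B1 came HNRNPU (286 ± 10.1), HNRNPC (249 ± 6.32), HNRNPA1P48 (249 ± 16.1), HNRNPK (236 ± 13.3) and HNRNPA1 (198 ± 6.86). HNRNPC, HNRNPA1P48 and HNRNPK did not differ beyond their SDs. The lowest after PCBP3 were RBFOX3 (0.603 ± 0.0406), HNRNPCL1 (0.942 ± 0.0584), SRSF12 (4.52 ± 0.348) and PCBP4 (5.62 ± 0.197). The SR genes lay in a middle band, from 11.4 ± 0.491 for SRSF8 to 137 ± 7.92 for SRSF1 apart from SRSF12.

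Members differed in what lay around them. The expressed genes within 5 Mb of SRSF9, 111 in number, had a median of 0.79, and those within 5 Mb of HNRNPF, 34 in number, a median of 0.64. With the neighbours subtracted, SRSF9 stood at 0.40 (adjusted p = 9.58e-07) and HNRNPF at 0.46 (adjusted p = 1.65e-08), both under 2-fold. The neighbour median entered as a fixed value, so p-values and calls in this setting leave out the spread among the neighbours. They are no test of a member against its neighbours. In addition GATC, annotated over SRSF9 on the opposite strand and with a mean count of 3004 beside 4561 for SRSF9, rose by 0.99 ± 0.05. Whether reads were counted by strand was not stated, so reads of such pairs cannot be told apart. HNRNPD and HNRNPDL lay among genes with medians of −0.62 and −0.64, and stood at 0.70 and 0.75 relative to them. HNRNPH3 went from 0.41 to 0.01, HNRNPUL1 from 0.36 to 0.12, PCBP2 from 0.30 to 0.06 and HNRNPH2 from −0.23 to −0.06, and these 4 no longer passed, nor did PCBP3, HNRNPH1, HNRNPA0, SRSF5 and SRSF11. In turn SRSF10, SRSF12, HNRNPD, HNRNPR and HNRNPU were called higher. HNRNPM (0.89), PCBP1 (0.63), PTBP1 (0.60), SRSF2 (0.60), HNRNPC (0.55), PTBP2 (0.55), PTBP3 (0.48), RBFOX3 (1.95), RBFOX2 (−0.17) and PCBP4 (−1.35) were still called. Among those that kept their call, HNRNPA1 moved to 0.15, HNRNPL to 0.35, TRA2B to 0.23, HNRNPA3 to 0.39 and HNRNPUL2 to −0.35. Over all 46 members, 31 were higher and 4 lower in this setting, with a median of 0.34 beside −0.08 over all tested genes. The shares of all tested genes called in this setting were not counted. What lies behind the shared change of neighbouring genes was not tested.

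Another gene with at least 10% of a member's own count overlapped 10 members. Beyond those named above, HNRNPAB overlapped PHYKPL (−0.26), SRSF2 overlapped MFSD11 (−0.22), PCBP1 overlapped PCBP1-AS1 (0.07), HNRNPA2B1 overlapped CBX3 (0.23), HNRNPH3 overlapped RUFY2 (0.09) and PCBP3 overlapped AJ239328.1 (0.35), each with its own log2 fold change in brackets. PHYKPL and MFSD11 were called lower and CBX3 higher, while PCBP1-AS1, RUFY2 and AJ239328.1 did not pass the test. Whether members and overlapping genes exchanged reads was not tested.

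Transcript GC content and length went with the change to some degree. Members with 50% GC or more, 12 in number, had a median of 0.67 and the 34 others a median of 0.30. Over the 46 members Pearson's r was 0.34 with GC content, −0.22 with transcript length, −0.18 with mean level and 0.46 with the median of the neighbours, all from the same 6 libraries and across genes that are not independent replicates. By rank (Spearman's rho) the values were 0.34, −0.39, −0.12 and 0.42. Over protein-coding genes averaging at least 50 counts Pearson's r was 0.07, −0.09, 0.17 and 0.29 in the same order. Spearman's rho over those genes was 0.12, −0.16, 0.17 and 0.38. With GC content and length offset, 39 members were higher and 5 lower, with a median of 0.39 beside −0.03 over all tested genes. The shares of all tested genes called in that setting were not counted. Pearson's r of the offset changes with GC content was 0.23.

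Other genes of the splicing pathway were counted in lists. As a background, 28.6% of all tested genes were higher and 29.0% lower. Among protein-coding genes averaging at least 1000 counts these shares were 51.6% and 28.4%. Of 76 tested genes of the core spliceosome, 56 were higher and 4 lower (2 without WT replicate 2 or ΔTUT4/7 replicate 3; median 0.40), among them PRPF19, a ubiquitin ligase of the active spliceosome, from 97.1 ± 1.86 to 216 ± 5.27 CPM (change 1.15 ± 0.04), and SNRNP40, a U5 protein, from 67.6 ± 5.07 to 159 ± 0.862 CPM (change 1.23 ± 0.05). Of the SR kinases and their import receptors, 7 of 12 (58.3%) were higher and 3 (25%) lower (median 0.29), with 1 lower without WT replicate 2 or ΔTUT4/7 replicate 1 or 3. SRPK1 rose by 0.54 ± 0.04, whereas CLK3 fell from 114 ± 5.62 to 58.5 ± 3.53 CPM (change −0.97 ± 0.06). Of 22 SR-related genes 14 were higher and 1 lower (median 0.32), with RSRC2 at 0.91 and U2SURP at 0.87. Of 49 other splicing regulators 29 (59.2%) were higher and 10 (20.4%) lower (median 0.20). Of the lists, this one and the SR kinases lay nearest to the shares of the abundant protein-coding genes. NOVA2, a neuronal splicing factor, was at 2.75, 2.54 and 2.48 CPM in WT and 25.03, 22.9 and 21.9 CPM in the libraries labelled ΔTUT4/7 (change 3.18 ± 0.11, adjusted p = 1.70e-15), and RBM38, a p53 target, rose by 1.42 ± 0.07. Of 10 genes of nonsense-mediated decay, which acts on the poison exon forms of SR transcripts, 9 were higher and 1 did not pass the test (median 0.44), with UPF1 at 0.69 and SMG5 at 0.68. These gene-level counts do not separate productive from poison exon transcripts.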

How the data were processed

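Per the labels and the study's methods, the authors sequenced rRNA-depleted total RNA of 3 WT and 3 ΔTUT4/7 cultures, mapped read pairs with STAR 2.7.3a to hg38 and quantified Ensembl genes in Partek 10.0.22. The deposited table holds estimated counts, in which reads fitting several genes are divided by a model, and 45.2% to 50.0% of values per library were not whole. A second deposited table holds the authors' own comparison (fold changes, p-values and group means) and was not used. Counts were rounded, limited to genes with a largest count above 12, scaled by TMM and tested with edgeR 4.0.16 (quasi-likelihood, group only, robust), after a test on simulated data. Each SE is the change divided by the root of F. DESeq2 1.42.0, limma 3.58.1, other scalings and filters, each library left out, a replicate block, GC and length offsets, neighbours subtracted (at least 5 genes within 5 Mb averaging 50 counts or more) and copies summed were alternatives. The median of the neighbours was subtracted as a fixed value, without its own error. Transcript length, GC content and sequence identity came from GENCODE 44 (all 46 members matched). Sequences of HNRNPA1 and its copies are not reported here. Paralog ratios were taken from the counts within a library and tested by exact two-sided permutation. All members were named, plus TUT4 and TUT7, markers, copies, overlapping genes and, per list, the 2 genes with the smallest p. Members and lists were chosen with earlier results of these data known.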

Additional observations from a re-analysis of the deposited data

How the results depend on the processing

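Across 46 members and 17 to 19 alternatives each, 772 values kept their direction and side of the threshold. A call was lost in 58 values (12 members) and gained in 23 (6 members), and 23 values changed sign (10 members), some of them among the lost or gained calls, while 27 members kept both in every alternative run. Members called higher numbered 26 (mean count of 50 or more, 44 members tested) to 39 (GC and length offset), and those lower 4 to 6. The shares over all tested genes were counted for the main analysis only. DESeq2 gave 32 and 5, limma-voom 33 and 5, and leaving out 1 library 29 to 34 and 5. With library size alone as the scale, the median of all genes moved by −0.11. This gave 27 higher and 6 lower members, called SRSF10 lower at −0.14, and turned SRSF6 to −0.022, TRA2A to −0.10, HNRNPD to −0.035, HNRNPDL to −0.0031, HNRNPR to −0.043 and HNRNPU to −0.078. Upper-quartile scaling moved that median by −0.10, also gave 27 and 6, called SRSF10 lower at −0.13, and turned SRSF6 to −0.0074, TRA2A to −0.089, HNRNPD to −0.021, HNRNPR to −0.028 and HNRNPU to −0.063. A mean count of 50 or more turned TRA2A to −0.052 and HNRNPU to −0.026. Without 1 library, TRA2A ranged from −0.022 to 0.061, with −0.0084 without WT replicate 2, −0.022 without WT replicate 3 and −0.017 without ΔTUT4/7 replicate 2, and the ratio of HNRNPDL to HNRNPD ranged from −0.020 to 0.058. Offsets for GC and length put SRSF10 at 0.13, with or without the replicate block. Subtracting neighbours put SRSF10 at 0.19, SRSF11 at −0.0062, TRA2A at −0.11, HNRNPA0 at −0.011 and HNRNPH1 at −0.021, and left 2 members called at 2-fold. Of the lists, the SR kinases called lower were 1 under the GC and length offset, with or without the block, and 1 to 3 without 1 library. The SR-related genes lower were 4 under library size or upper-quartile scaling and 3 at a mean count of 50 or more. The other regulators lower were 17 and the decay genes lower 2 with neighbours subtracted. The core spliceosome genes lower were 8 under library size, upper-quartile scaling or a mean count of 50 or more, and 2 to 4 without 1 library. The cause was not tested.

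Same-numbered libraries did not deviate together (r = 0.0611, 0.00518 and −0.0355 for numbers 1 to 3), so the numbers were not taken to pair them, and not every library correlated best with its own number. With the replicate block 34 members were higher and 5 lower, with SRSF6 called and HNRNPCL1 not. PCBP3 and HNRNPCL1 had the fewest counts and the largest SEs of the members. Counts per gene cannot show which exons were used.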
